A study of Homo sapiens with 6 samples.

Results

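The 51 genes described here encode proteins of DNA repair and of the signalling that accompanies it. They were chosen by name, by matching the gene symbol in the expression table to a set of repair genes, and all 51 were found among the 17918 genes of that table. The set was drawn up with earlier results of these data known. They were sorted by textbook role into 15 genes of homologous recombination, 3 of the Fanconi anaemia pathway, 6 of end joining, 5 of damage signalling, 4 of mismatch repair, 10 of nucleotide excision repair and 7 of base excision and single-strand break repair, with MGMT as a single direct reversal gene.

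Cells mend different lesions by different routes. Homologous recombination copies a sister chromatid to repair a broken chromosome, whereas end joining ligates the ends directly. Mismatch repair removes replication errors, nucleotide excision repair cuts out bulky adducts and ultraviolet photoproducts, and base excision repair replaces single damaged bases through enzymes that cut the base from the sugar, a polymerase and a ligase. Myeloma cells descend from plasma cells, whose B-cell precursors break and mutate their own immunoglobulin genes, with UNG, the mismatch factors and end joining taking part.

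KMS11, a human multiple myeloma cell line, was sequenced as bulk RNA in 3 libraries from cells transfected with a short hairpin RNA against CRIP1 (shCRIP1, given in the labels as CRIP1 knockdown) and in 3 libraries from cells transfected with a scrambled hairpin (shScramble). CRIP1 is a small LIM-domain protein, and the study asked what lowering it does in myeloma cells. All cells carried a hairpin, were grown in RPMI medium with fetal bovine serum and received no other treatment, and whether the transfected cells were a pool or 1 clone is not given. The labels call the 3 libraries of a group replicates without naming separate cultures, and the p-values below therefore reflect only how far these libraries spread, which may be technical.

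CRIP1 itself was at 127, 129 and 134 TPM (a level per gene length, scaled to the same total in each library) in the shCRIP1 libraries, against 2791, 3327 and 3174 TPM in the shScramble libraries, which is 4.2% of the shScramble mean. Libraries held 17348822 to 18005318 estimated counts in shCRIP1 and 16971454 to 17243017 in shScramble. Of 12612 genes tested, 77.6% differed between the groups at an adjusted p under 0.05, with 39.4% higher and 38.1% lower in shCRIP1, so that passing the test alone says little about a gene here. Among cell type markers, the 13 erythroid genes summed to 739 to 747 TPM in shCRIP1 and to 0.23 to 1.04 TPM in shScramble, where 11 of them were at 0 counts, all 11 of those tested being called higher. The 12 plasma cell markers summed to 3940 to 4200 TPM in shCRIP1 and to 8600 to 9060 TPM in shScramble, with 7 called lower and 3 higher of 10 tested. Epithelial markers summed to 89.7 to 97.5 TPM in shCRIP1 and to 19.9 to 22.9 TPM in shScramble, where KRT19 was at 0, with 5 called higher and 1 lower of 6 tested. The part of any of these marker sets in the results on repair genes was not tested. In bulk RNA, more or fewer cells of a type cannot be told apart from more or less RNA per cell.

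All 51 repair genes passed the filter on low counts, with 104 to 17715 estimated counts in a library. Of these, 40 were called at an adjusted p under 0.05 by edgeR's quasi-likelihood test with Benjamini-Hochberg adjustment, which is 78.4% of them beside the background of 77.6%. In shCRIP1, 19 were higher (37.3%, beside 39.4% of all genes) and 21 were lower (41.2%, beside 38.1%). The repair genes as a whole were called about as often as any other gene, in both directions. Most called changes were small. Changes of at least 1.5-fold were called in 8 of the 51, or 15.7%, beside 35.4% of all genes tested (18.2% higher and 17.1% lower), and beside 28.3% of the 9962 genes with a mean of at least 100 counts, of which 79.8% were called at any size. That last comparison was chosen after the data were seen. The median log2 fold change over the 51 was -0.05, beside 0.01 for all genes, and the median size regardless of sign was 0.30, beside 0.41. The median of the 51 turned positive, to 0.10, on the log2(TPM + 1) scale, where that of all genes was 0.12, and was -0.14 with a trend on GC content removed, where that of all genes was -0.08.

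**Figure D1:**
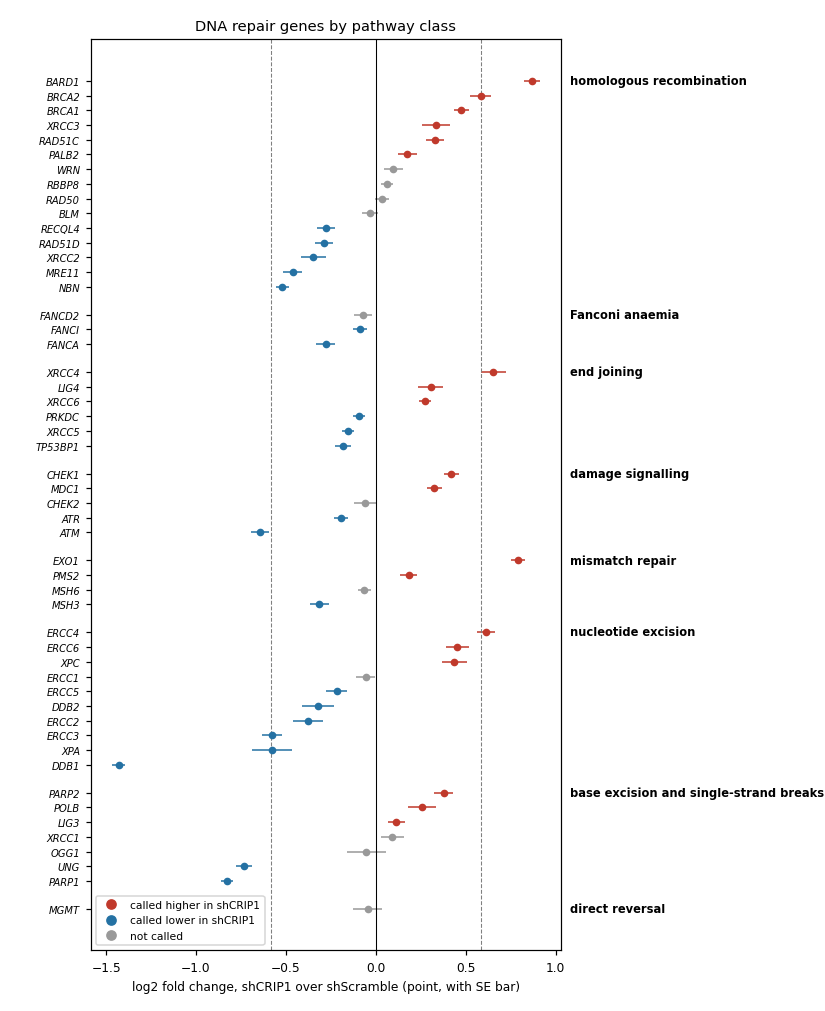
Log2 fold change of shCRIP1 over shScramble for each of the 51 repair genes, grouped by pathway class, with bars for the SE from edgeR (3 libraries a group) and dashed lines at 1.5-fold. Every class with at least 4 genes holds points on both sides of 0, and DDB1 lies farthest out at -1.43.

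The 8 genes called at 1.5-fold or more came from 6 of the classes. Higher in shCRIP1 were BARD1, the RING-domain partner of BRCA1, EXO1, the exonuclease that removes the strand carrying a mismatch, XRCC4, the scaffold of the end-joining ligase, and ERCC4, the XPF endonuclease. Lower were DDB1, an adaptor of CUL4 ubiquitin ligases that forms the ultraviolet damage sensor with DDB2, PARP1, the main poly(ADP-ribose) polymerase at DNA breaks, UNG, which removes uracil from DNA, and ATM, the kinase activated by double-strand breaks. Just inside the 1.5-fold line, at 0.585 on the log2 scale, were ERCC4 at 0.61 and ATM at -0.64, and just outside it were BRCA2 at 0.58, XPA at -0.58 and ERCC3 at -0.58. In GRCh38 coordinates of GENCODE 29, BARD1 (gene ID 580) lies at chr2:214725646-214809711, EXO1 (9156) at chr1:241847967-241895148, XRCC4 (7518) at chr5:83077498-83353787 and ERCC4 (2072) at chr16:13920157-13952345. DDB1 (1642) lies at chr11:61299451-61342596, PARP1 (142) at chr1:226360691-226408079, UNG (7374) at chr12:109097574-109110992 and ATM (472) at chr11:108222484-108369102.

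BARD1 had 109, 103 and 107 normalised CPM (counts per unit of library size after TMM scaling, which evens out composition) in shCRIP1, against 56.5, 58.9 and 59.6 in shScramble, a log2 fold change of 0.87 ± 0.04 (SE; n = 3 libraries a group) with an adjusted p of 3.32e-13 by edgeR. EXO1 had 151, 153 and 152 normalised CPM in shCRIP1, against 88.0, 88.7 and 87.0 in shScramble (0.79 ± 0.04, adjusted p = 1.33e-13 by edgeR). All 3 shCRIP1 libraries lay well above all 3 shScramble libraries for both genes, and the SD over EXO1's libraries was 1.35 in shCRIP1 and 0.85 in shScramble. XRCC4 had 30.2, 30.4 and 32.5 normalised CPM in shCRIP1, against 20.6, 20.7 and 17.9 in shScramble (0.65 ± 0.07, adjusted p = 3.03e-08 by edgeR). ERCC4 had 52.6, 54.3 and 55.4 in shCRIP1, against 35.0, 34.7 and 36.4 in shScramble (0.61 ± 0.05, adjusted p = 8.25e-10 by edgeR). Neither gene's groups overlapped. With the GC trend removed both stayed called higher but came under 1.5-fold, XRCC4 at 0.39 and ERCC4 at 0.41, while BARD1 at 0.63 and EXO1 at 0.64 remained above it.

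DDB1 had the largest fall, and was the only 1 of the 51 to change by 2-fold or more, beside 18.1% of all genes. It was at 221, 221 and 211 normalised CPM in shCRIP1, against 598, 566 and 598 in shScramble, which is 2.69-fold lower (-1.43 ± 0.04 on the log2 scale, adjusted p = 5.62e-18 by edgeR). Its level per length averaged 100.0 ± 2.27 TPM in shCRIP1 and 246 ± 7.82 TPM in shScramble (SD, n = 3 each). Over the 17 alternative settings, its log2 fold change ran from -1.46 to -1.29. Exons of DDB1 overlap those of TKFC on the other strand, and since no strand setting is given the reads of the overlap cannot be told apart. TKFC was higher in shCRIP1 (0.60 ± 0.05, adjusted p = 1.31e-09 by edgeR).

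PARP1 had 589, 599 and 587 normalised CPM in shCRIP1, against 1072, 1024 and 1057 in shScramble (-0.83 ± 0.03, SE, adjusted p = 4.16e-15 by edgeR). UNG had 89.1, 84.6 and 91.8 normalised CPM in shCRIP1, against 151, 140.0 and 149 in shScramble (-0.73 ± 0.04, adjusted p = 3.63e-12 by edgeR). For both, the highest shCRIP1 library was far below the lowest shScramble library, and both remained called lower under all 17 alternatives. PARP1 is among the most abundant transcripts of the 51 genes, averaging 292 ± 1.11 TPM in shCRIP1 and 472 ± 10.5 TPM in shScramble.

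**Figure D2:**
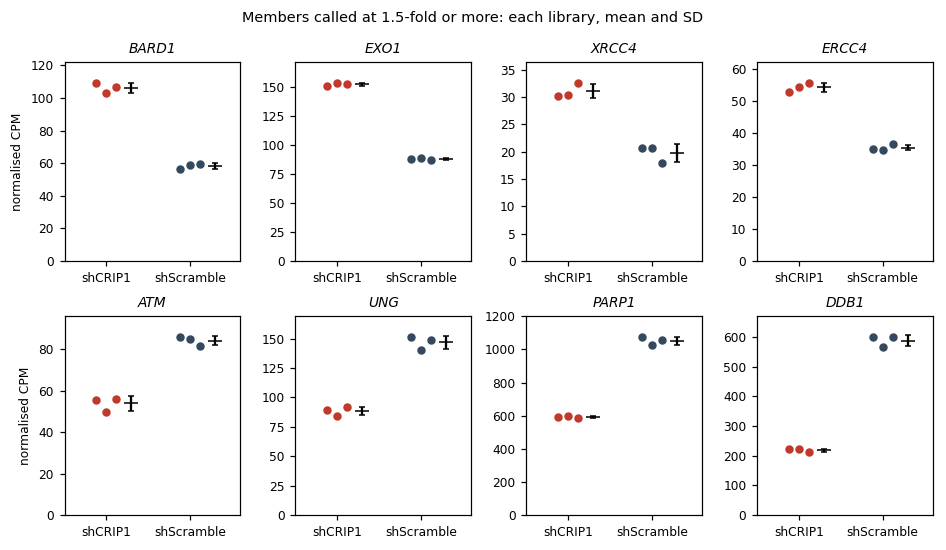
Normalised CPM in each library (points, shCRIP1 red and shScramble dark blue) with mean and SD (black) for the 8 genes called at 1.5-fold or more, on axes that start at 0. In every panel the 3 shCRIP1 libraries and the 3 shScramble libraries occupy separate ranges.

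ATM was called lower by counts, and the call did not hold per length. It had 55.7, 49.8 and 56.2 normalised CPM in shCRIP1, against 85.8, 85.2 and 81.7 in shScramble (-0.64 ± 0.05, adjusted p = 3.06e-10 by edgeR), and these do not overlap. In TPM, however, it had 11.03, 8.72 and 16.9 in shCRIP1, against 13.8, 15.2 and 12.0 in shScramble, which overlap, with the highest and the lowest values both in shCRIP1. The length that the deposited counts and FPKM imply for ATM was 9224, 10385 and 6123 bases in shCRIP1, against 10295, 9333 and 11370 bases in shScramble. Such a length depends on how reads were shared out among a gene's transcripts, and the shCRIP1 library with the shortest length had the highest TPM. With limma the log2 difference was -0.22 on log2(FPKM + 1), with an adjusted p of 0.263, and -0.19 on log2(TPM + 1), with an adjusted p of 0.361, so the call was lost on both. ATM also shares exons with NPAT and C11orf65 on the other strand, which were higher in shCRIP1 at 0.23 ± 0.06 (adjusted p = 0.00185 by edgeR) and 1.22 ± 0.44 (adjusted p = 0.0165 by edgeR).

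**Figure D3:**
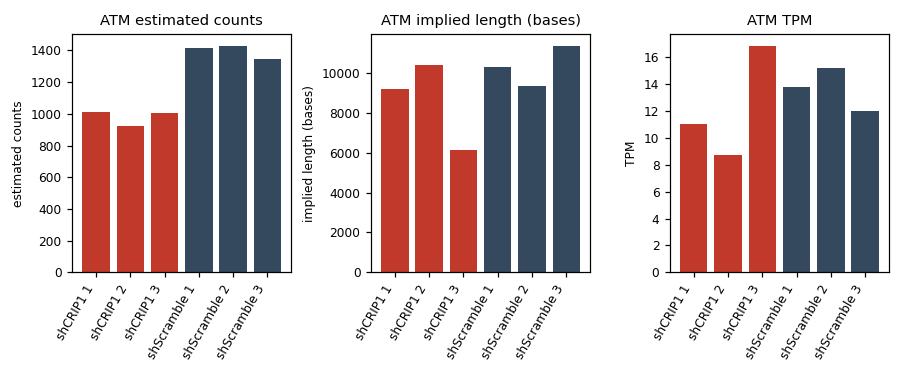
Estimated counts, the length in bases implied by the deposited counts and FPKM, and TPM of ATM in each of the 3 shCRIP1 libraries (red) and the 3 shScramble libraries (dark blue). Counts are 920 to 1011 in shCRIP1 and 1343 to 1429 in shScramble, whereas the TPM bars of the groups overlap.

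Promoters of the 4 genes with the largest changes are shown to give the sequence at their starts, as the 250 bases before the first start that RefSeq lists for each gene, read 5′ to 3′ on the gene's strand (build GRCh38.p14). Capitals mark matches on either strand to any of 5 short motifs: the E2F site (TTGGCGC or TTCGCGC or TTCCCGC or TTGCCGC), the CCAAT box (CCAAT), the CHR element of cell cycle genes (TTTGAA), the E-box (CACGTG) and the GC box (GGGCGG). BARD1 lies on the minus strand of chromosome 2 (chr2:214809684-214809933), EXO1 on the plus strand of chromosome 1 (chr1:241847954-241848203), DDB1 on the minus strand of chromosome 11 (chr11:61333106-61333355) and PARP1 on the minus strand of chromosome 1 (chr1:226408094-226408343).
BARD1: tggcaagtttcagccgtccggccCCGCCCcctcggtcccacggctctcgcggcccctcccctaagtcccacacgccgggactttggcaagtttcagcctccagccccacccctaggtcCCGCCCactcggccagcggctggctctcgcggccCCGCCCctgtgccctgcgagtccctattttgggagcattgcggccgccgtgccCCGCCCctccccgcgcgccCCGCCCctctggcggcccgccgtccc
EXO1: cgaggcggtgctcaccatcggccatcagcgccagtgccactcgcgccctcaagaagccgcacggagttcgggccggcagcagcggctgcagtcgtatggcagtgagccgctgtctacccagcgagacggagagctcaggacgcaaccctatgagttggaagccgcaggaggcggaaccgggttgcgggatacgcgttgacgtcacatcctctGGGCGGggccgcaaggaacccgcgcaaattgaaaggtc
DDB1: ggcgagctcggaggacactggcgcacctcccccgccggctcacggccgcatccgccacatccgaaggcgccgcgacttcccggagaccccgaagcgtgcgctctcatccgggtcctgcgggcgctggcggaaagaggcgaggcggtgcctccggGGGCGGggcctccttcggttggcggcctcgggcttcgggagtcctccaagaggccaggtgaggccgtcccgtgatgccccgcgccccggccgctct
PARP1: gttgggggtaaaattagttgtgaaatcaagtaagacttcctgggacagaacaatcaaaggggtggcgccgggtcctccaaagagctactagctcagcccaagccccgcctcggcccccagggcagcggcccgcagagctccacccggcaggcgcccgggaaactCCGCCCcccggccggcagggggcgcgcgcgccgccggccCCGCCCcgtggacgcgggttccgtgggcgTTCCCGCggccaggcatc
BARD1 has 5 GC box matches, EXO1 and DDB1 have 1 each, and PARP1 has 2 and an E2F site match, with no bases shared between motifs in these 4. Of the 51 genes, 44 matched an entry, while RECQL4, PRKDC, XRCC5, WRN, POLB, FANCI and NBN did not. Over these 44, the E2F site was in 14 (31.8%), beside 17.8% of the 10244 promoters of genes tested and 3009 of all 27305. It was in 4 of the 18 promoters of repair genes called higher (22.2%), in 6 of the 16 of those called lower (37.5%) and in 4 of the 10 of those not called. The GC box was in 70.5% of the 44, beside 67.2% of promoters of genes tested, and the CCAAT box was in 38.6%, beside 35.6%. The CHR element was in 6.82%, beside 8.55%, and the E-box in 6.82%, beside 8.89%. Its 3 matches were in BRCA2, ERCC6 and LIG3, all called higher, though LIG3's call was lost under several alternatives, such as removal of the GC trend. Whether any motif goes with the direction of change was not tested. In 4 of the 44, matches to different motifs shared bases. A match is a description of letters and not a bound site.

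In homologous recombination, 6 of 15 genes were higher in shCRIP1, 5 were lower and 4 were not called. Higher were BARD1 (above), BRCA2, which loads the strand-exchange filament (0.58 ± 0.06, SE), BRCA1 (0.47 ± 0.04) and PALB2, the bridge between the BRCA proteins (0.18 ± 0.05), and the strand-exchange paralogues XRCC3 (0.34 ± 0.08) and RAD51C (0.33 ± 0.05). Adjusted p by edgeR was 1.76e-08 for BRCA2, 2.14e-09 for BRCA1 and 0.00423 for PALB2, whose call was lost with the GC trend removed (0.03, adjusted p = 0.601). BRCA1 had 182, 169 and 187 normalised CPM in shCRIP1, against 132, 130 and 126 in shScramble, without overlap.

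Subunits of the complex that first binds broken ends differed from each other. NBN, the damage-sensing subunit, had 99.6, 99.9 and 104 normalised CPM in shCRIP1, against 145 in each of the 3 shScramble libraries (-0.52 ± 0.04, adjusted p = 1.28e-10 by edgeR). MRE11, the nuclease subunit, had 32.9, 32.2 and 31.0 in shCRIP1, against 45.2, 43.5 and 43.8 in shScramble (-0.46 ± 0.05, adjusted p = 1.05e-07 by edgeR). RAD50, the ATPase that tethers ends, was not called (0.03 ± 0.04, adjusted p = 0.431 by edgeR), with 121, 125 and 118 in shCRIP1 beside 120.0, 116 and 118 in shScramble. The other genes called lower were the paralogues XRCC2 (-0.35 ± 0.07) and RAD51D (-0.29 ± 0.05) and the helicase RECQL4 (-0.28 ± 0.05). Among XRCC2's libraries, shCRIP1 values ran from 47.2 to 62.0 normalised CPM, close below the 65.4 to 72.0 of shScramble. The helicases BLM (-0.03 ± 0.04) and WRN (0.10 ± 0.05) and the end-resection factor RBBP8 (0.06 ± 0.04) were not called. RAD50, RBBP8 and WRN were called in opposite directions by different scalings: lower with the GC trend removed, at -0.14, -0.14 and -0.12, and higher on log2(TPM + 1), at 0.16, 0.20 and 0.22, and on log2(FPKM + 1), RBBP8 and WRN also with upper-quartile scaling. BLM was called lower with the GC trend removed, and XRCC2's call was lost on log2(TPM + 1). Removing the GC trend thus gave 5 higher genes and 9 lower ones in the class, and log2(TPM + 1) gave 9 higher and 4 lower.

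The Fanconi anaemia genes act on interstrand crosslinks. Each repair gene was placed in a single class, so a gene that also acts in this pathway may be counted elsewhere. FANCA, a subunit of the core ligase complex, had 33.0, 34.3 and 34.0 normalised CPM in shCRIP1, against 41.5, 40.9 and 40.6 in shScramble (-0.28 ± 0.05, adjusted p = 6.16e-05 by edgeR). The clamp pair FANCI and FANCD2, which the core complex ubiquitinates, were at -0.09 ± 0.04 (adjusted p = 0.0469 by edgeR) and -0.07 ± 0.05 (adjusted p = 0.181 by edgeR). FANCI's call ended under 7 other settings and when shCRIP1 replicate 2, shCRIP1 replicate 3 or shScramble replicate 1 was left out, leaving at most 1 gene lower in the class. All 3 genes were called lower with the GC trend removed, FANCI at -0.22 (adjusted p = 4.00e-06 by edgeR) and FANCD2 at -0.20 (adjusted p = 0.000395 by edgeR). Exons of FANCI overlap those of POLG, the mitochondrial polymerase, on the other strand, and POLG was lower in shCRIP1 (-1.37 ± 0.06, adjusted p = 1.96e-14 by edgeR).

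Of the 6 end-joining genes, 3 were higher and 3 lower in shCRIP1. XRCC4 was described above, and LIG4, the ligase it holds, was at 27.9, 25.9 and 26.7 normalised CPM in shCRIP1, against 20.9, 23.9 and 20.4 in shScramble (0.30 ± 0.07, adjusted p = 0.000573 by edgeR). The Ku subunits, which ring the broken end, took opposite signs. XRCC6, encoding Ku70, had 717, 700.0 and 694 normalised CPM in shCRIP1, against 605, 569 and 573 in shScramble (0.27 ± 0.03, adjusted p = 3.16e-07 by edgeR), and was the most abundant of the 51 genes per length in both groups. XRCC5, encoding Ku80, had 531, 538 and 525 in shCRIP1, against 584, 604 and 585 in shScramble (-0.15 ± 0.03, adjusted p = 2.04e-04 by edgeR). PRKDC, the kinase that Ku recruits, was at -0.09 ± 0.03 (adjusted p = 0.0115 by edgeR). TP53BP1, which shields ends from resection, had the largest fall of the class, with 91.0, 90.4 and 84.4 in shCRIP1, against 104, 98.6 and 99.1 in shScramble (-0.18 ± 0.04, adjusted p = 7.71e-04 by edgeR). On the log2(TPM + 1) scale none of the 3 falls was called, and PRKDC turned to 0.04. PRKDC's call was also lost without shCRIP1 replicate 3. When the GC trend was removed the 3 falls stayed called and the rise of LIG4 did not, at 0.03 (adjusted p = 0.682 by edgeR).

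Damage signalling genes split as well. CHEK1, the effector kinase of ATR, had 95.0, 97.4 and 96.1 normalised CPM in shCRIP1, against 72.7, 71.5 and 71.3 in shScramble (0.42 ± 0.04, adjusted p = 1.00e-08 by edgeR). MDC1, the scaffold at phosphorylated histone H2AX, was also higher (0.33 ± 0.04), whereas ATR, the kinase of stalled replication forks, was lower (-0.19 ± 0.04, adjusted p = 1.85e-04 by edgeR). CHEK2, the effector kinase of ATM, was not called (-0.06 ± 0.06, adjusted p = 0.366 by edgeR), with reads that may be shared with near-identical pseudogene copies. The calls of ATM and ATR both ended on the log2(TPM + 1) and log2(FPKM + 1) scales, which leaves 0 lower genes in the class there. Removal of the GC trend left 3 lower, ATR at -0.39 and CHEK2 now called at -0.15 (adjusted p = 0.0153 by edgeR).

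Mismatch repair was represented by 4 genes, of which EXO1 and PMS2 were higher, MSH3 was lower and MSH6 was not called. MSH3, which with its partner recognises larger loops, had 29.8, 29.3 and 29.3 normalised CPM in shCRIP1, against 37.0, 36.9 and 35.9 in shScramble (-0.31 ± 0.05, adjusted p = 2.47e-05 by edgeR). MSH6, which recognises single mispairs, had 197 to 201 in shCRIP1, beside 204 to 216 in shScramble (-0.07 ± 0.04, adjusted p = 0.11 by edgeR), and was called lower, at -0.25, with the GC trend removed. PMS2, a subunit of the nicking endonuclease, was at 0.18 ± 0.05 (adjusted p = 0.00162 by edgeR), and its many pseudogene copies make that value uncertain.

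Nucleotide excision repair had the lowest class median, -0.27, with 6 of 10 genes lower in shCRIP1, 3 higher and 1 not called. Its median stayed below 0 under the scalings tried, at -0.13 on log2(TPM + 1), -0.23 with upper-quartile scaling and -0.34 with the GC trend removed. Among the damage sensors, DDB1 fell as above and DDB2 was lower (-0.32 ± 0.09, SE, adjusted p = 0.00255 by edgeR), whereas XPC, which binds distorted helices genome-wide, was higher (0.44 ± 0.07, adjusted p = 7.24e-06 by edgeR). The helicases of the transcription factor complex TFIIH were lower, ERCC3 with 37.0, 36.5 and 33.7 normalised CPM in shCRIP1, against 50.8, 54.7 and 54.5 in shScramble (-0.58 ± 0.05), and ERCC2 with 18.7, 23.5 and 17.5 in shCRIP1, against 25.5, 25.9 and 26.2 in shScramble (-0.38 ± 0.09). XPA, which verifies the lesion, had the lowest normalised CPM of the 51 in shCRIP1, with 7.88, 6.76 and 5.81 in shCRIP1, against 10.3, 9.84 and 10.5 in shScramble (-0.58 ± 0.11). The cutting enzymes differed from each other: ERCC4 was higher, its obligate partner ERCC1 was not called (-0.06 ± 0.05, adjusted p = 0.332 by edgeR), and ERCC5, the nuclease on the other side of the lesion, was lower (-0.22 ± 0.06). On log2(TPM + 1) the calls of ERCC5 (-0.08, adjusted p = 0.27 by limma) and DDB2 (-0.18, adjusted p = 0.0598 by limma) were lost, that of ERCC5 also on log2(FPKM + 1), which leaves 4 genes lower on log2(TPM + 1) and 5 on log2(FPKM + 1). ERCC6, the Cockayne syndrome ATPase that starts the transcription-coupled branch, was higher (0.45 ± 0.06, adjusted p = 1.70e-06 by edgeR).

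Base excision and single-strand break repair had 3 genes higher, 2 lower and 2 not called in shCRIP1. Its 2 falls, PARP1 and UNG, were larger than any of its rises. PARP2, a second polymerase of the PARP family, had 41.7, 39.5 and 40.2 normalised CPM in shCRIP1, against 31.8, 31.4 and 30.3 in shScramble (0.38 ± 0.05, adjusted p = 2.46e-06 by edgeR). POLB, the gap-filling polymerase, was at 0.26 ± 0.08 (adjusted p = 0.00474 by edgeR) and LIG3, the ligase that XRCC1 carries, at 0.11 ± 0.05 (adjusted p = 0.0391 by edgeR). XRCC1, the scaffold (0.09 ± 0.06), and OGG1, which removes oxidised guanine (-0.05 ± 0.11), were not called. With the GC trend removed, of the 3 rises only that of PARP2 remained called. On log2(TPM + 1) and log2(FPKM + 1) all 3 rises stayed called and XRCC1 was called higher as well. XRCC1 was called higher too without shCRIP1 replicate 1. LIG3's call was lost without shCRIP1 replicate 1 or 2 and without shScramble replicate 2 or 3. MGMT, which strips alkyl groups from guanine, was not called either, with 14.4, 15.5 and 15.8 normalised CPM in shCRIP1, beside 16.6, 14.5 and 16.1 in shScramble (-0.05 ± 0.08, adjusted p = 0.615 by edgeR). On log2(TPM + 1) it was called higher, at 0.13 (adjusted p = 0.0312 by limma).

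Set side by side, the class medians were 0.09 for end joining, 0.09 for base excision and single-strand breaks, 0.06 for homologous recombination, 0.06 for mismatch repair, -0.06 for damage signalling, -0.09 for the Fanconi anaemia genes and -0.27 for nucleotide excision, beside 0.01 for all genes. With the GC trend removed, where all genes were at -0.08, homologous recombination was at -0.14, end joining at -0.08 and mismatch repair at -0.08, so these turned negative, while base excision stayed at 0.05. On log2(TPM + 1), where all genes were at 0.12, damage signalling turned to 0.06. The classes were not tested against each other, since genes of a class are not replicates.

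**Figure D4:**
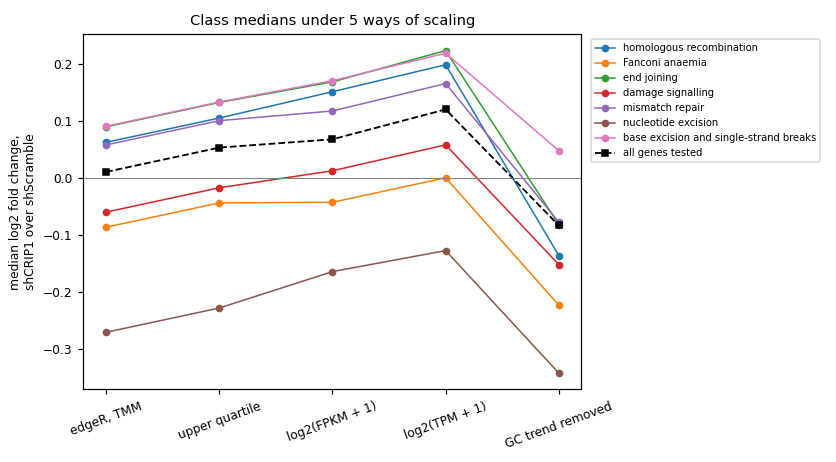
Median log2 fold change of shCRIP1 over shScramble in each of 7 pathway classes and over all genes tested (black squares) under 5 scalings. Nucleotide excision is the lowest line at every scaling, and homologous recombination, end joining and mismatch repair drop below 0 with the GC trend removed.

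Because many of these proteins work in pairs, the ratio of the partners' counts within each library was compared for 14 pairs, which removes the library scaling. The groups did not overlap in 12 of the 14, beside 78.9% of single genes by normalised CPM and 82.4% of the 51 repair genes. A ratio joins the shifts of both partners, so single genes are an unlike measure, and no share for other gene pairs was computed. The exact two-sided permutation test gave p = 0.1 for each of these 12, the smallest value that 3 libraries against 3 can give, or 0.117 adjusted over the 14 pairs, so none can pass 0.05. The XRCC6 to XRCC5 ratio was 1.35, 1.30 and 1.32 in shCRIP1, against 1.03, 0.94 and 0.98 in shScramble. NBN to RAD50 averaged 0.837 ± 0.045 in shCRIP1 and 1.23 ± 0.0238 in shScramble (SD, n = 3 each). Both kept separate ranges in TPM.

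BARD1 to BRCA1 averaged 0.59 ± 0.02 in shCRIP1 and 0.45 ± 0.02 in shScramble (SD, n = 3 each), and ERCC4 to ERCC1 averaged 1.16 ± 0.07 in shCRIP1 and 0.73 ± 0.00178 in shScramble. DDB2 to DDB1 was 2.15 times the shScramble mean in shCRIP1, at 0.0594 ± 0.00453 against 0.0276 ± 0.00130. The widest shift was in PARP2 to PARP1, at 0.0684 ± 0.00240 in shCRIP1 against 0.0296 ± 0.000972 in shScramble, or 2.31 times. FANCD2 to FANCI kept overlapping ranges, averaging 0.253 ± 0.00490 in shCRIP1 and 0.251 ± 0.00593 in shScramble, as did LIG3 to XRCC1, at 1.16 to 1.49 in shCRIP1 and 1.21 to 1.31 in shScramble. In TPM the ratios of ATM to ATR and of ERCC3 to ERCC2 also overlapped.

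**Figure D5:**
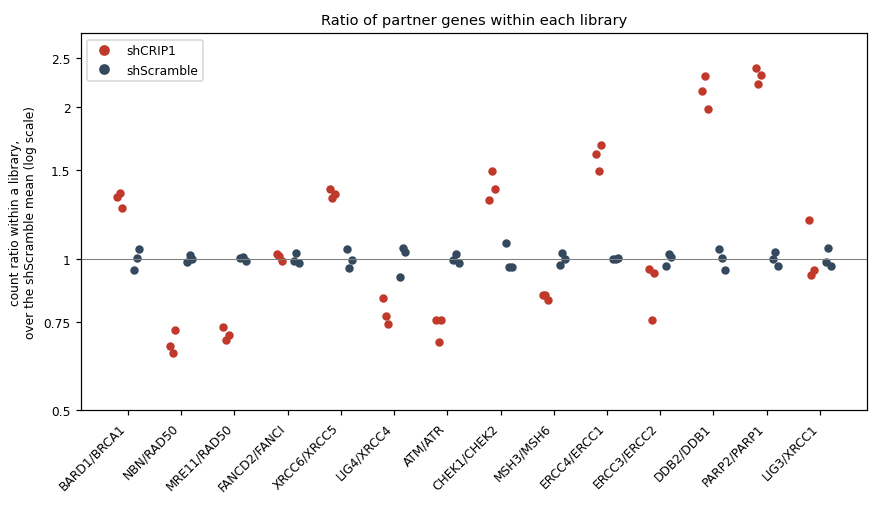
Ratio of estimated counts of partner genes within each library, divided by the mean of the shScramble libraries, on a log scale, with shCRIP1 (red) left of shScramble (dark blue) in each of 14 pairs. The points separate in 12 pairs and overlap in FANCD2 to FANCI and LIG3 to XRCC1.

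By level per length, XRCC6 was first in both groups, with 697 ± 14.1 TPM in shCRIP1 and 525 ± 16.2 TPM in shScramble (SD, n = 3 each). XRCC5 averaged 313 ± 1.54 TPM in shCRIP1 and 317 ± 6.20 TPM in shScramble, so PARP1 stood behind it at rank 3 in shCRIP1 and ahead of it at rank 2 in shScramble. Within shCRIP1, PARP1 and XRCC5 differed by more than the SD of either. DDB1 was at rank 6 in shCRIP1 and 4 in shScramble, and UNG at rank 9 in shCRIP1 and 5 in shScramble. At the low end, BRCA2 averaged 5.83 ± 0.28 TPM in shCRIP1 and 3.54 ± 0.10 TPM in shScramble, and ERCC6 5.67 ± 0.18 TPM in shCRIP1 and 4.41 ± 0.25 TPM in shScramble. The median of the 51 was 30.6 TPM in shCRIP1 and 26.8 TPM in shScramble. Groups did not overlap in 42 of the 51 by normalised CPM (82.4%), beside 78.9% of all genes tested. By TPM they did not overlap in 38, for which no share over all genes was computed. In 8 genes the sign of the TPM ratio differed from that of the fitted change, FANCI and PRKDC being the called ones. Exons of 21 of the 51 overlap another coding gene in GENCODE 29.

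The pathways hold many further genes, and 142 of 146 other repair genes could be tested. Of these, 67 were higher in shCRIP1, 38 were lower and 37 were not called, with a median of 0.10. That split depended on the scaling. With the GC trend removed, most of the lists below had fewer genes higher and more lower, as given for each. Of all genes tested, 39.4% were higher and 38.1% lower, which is also the background for each list below. No list was tested against it. Other homologous recombination genes were higher in 16 of 29 and lower in 4, with a median of 0.22 (0.07 with the GC trend removed, 0.35 on log2(TPM + 1)). With the GC trend removed 12 of them were higher and 8 lower, beside 4278 and 5688 of all 12612 genes. In that list SFR1, a cofactor of strand exchange, had the largest rise, averaging 29.8 ± 1.28 TPM in shCRIP1 and 10.1 ± 1.72 TPM in shScramble (1.37 ± 0.10, adjusted p = 2.19e-10 by edgeR). RAD54L, a translocase of the same step, had the largest fall, averaging 8.43 ± 0.87 TPM in shCRIP1 and 20.1 ± 1.96 TPM in shScramble (-1.51 ± 0.08, adjusted p = 1.24e-12 by edgeR).

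Other Fanconi anaemia genes were 7 higher and 6 lower of 16 (6 and 7 with the GC trend removed). They ran from FAAP20 at 2.22 ± 0.18 to FAAP100 at -0.57 ± 0.06, both subunits around the core complex. Other end-joining genes were 5 higher and 7 lower of 18 (3 and 10 with the GC trend removed), and the polymerase POLM had the largest rise, at 0.73 ± 0.10. Other signalling genes were 8 higher and 8 lower of 20 (7 and 10 with the GC trend removed). H2AX, the histone marked around breaks, averaged 144 ± 17.6 TPM in shCRIP1 and 52.1 ± 3.25 TPM in shScramble (1.33 ± 0.07, adjusted p = 1.16e-12 by edgeR), and TIMELESS, a fork protection protein, averaged 63.7 ± 1.61 TPM in shCRIP1 and 121 ± 3.76 TPM in shScramble (-1.06 ± 0.04, adjusted p = 6.08e-16 by edgeR).

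Other mismatch repair genes were 3 higher and 0 lower of 4 tested, led by MSH5, whose known role is in meiosis, at 1.57 ± 0.08. With the GC trend removed 2 of the 4 were higher and 1 lower, and their median fell from 0.37 to 0.15. Other nucleotide excision genes were 8 higher and 4 lower of 18, from UVSSA, a factor of the transcription-coupled branch, at 1.11 ± 0.12 to RBX1, the RING subunit of cullin ligases including the one that holds DDB1, at -0.46 ± 0.05. Their median was 0.10, unlike the -0.27 of the 10 described above. With the GC trend removed 7 of them were higher and 7 lower, and the median turned to -0.03. Other base excision genes were 9 higher and 7 lower of 19 (the same with the GC trend removed), from PARP3 at 1.14 ± 0.09 to POLG. Translesion synthesis genes were 8 higher and 2 lower of 14, from the primase-polymerase PRIMPOL at 0.81 ± 0.06 to HLTF, a fork remodeller, at -0.76 ± 0.05. With the GC trend removed 5 of the 14 were higher and 4 lower, and their median fell from 0.22 to 0.03. Of 7 direct reversal and nucleotide pool genes, 4 were higher and 2 lower (4 and 3 with the GC trend removed). They ran from DUT, which clears dUTP and so keeps uracil out of DNA, at 0.79 ± 0.04 to DCTPP1 at -0.58 ± 0.05. DUT averaged 219 ± 3.12 TPM in shCRIP1 and 118 ± 3.26 TPM in shScramble, while UNG, described above, was lower.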

How the data were processed

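Bulk RNA was sequenced from 3 shCRIP1 and 3 shScramble libraries of KMS11 cells, made from total RNA with a SMARTer kit, per the labels, and grouped by sample title. The deposited table has 3 values per gene and library, per the file headers: the estimated count, FPKM and TPM. FPKM and TPM as deposited by the authors are scaled for gene length and library total. RSEM 1.2.8, Bowtie2 2.2.5 and HISAT2 2.1.0, and build GRCh38.p13, appear in the submitters' processing notes. The annotation and strand setting are not given in the sources used here.

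After rounding to whole numbers, the estimated counts went into edgeR 4.0.16 (R 4.3.3), with filterByExpr at a count minimum of 10, TMM scaling, group alone in the quasi-likelihood model, and Benjamini-Hochberg adjustment over 12612 genes with a threshold of 0.05. Log2 fold changes are shCRIP1 minus shScramble. Totals were 16971454 to 18005318 estimated counts, and the common biological coefficient of variation was 3.33%. Within a group the mean chi-square per gene was 1.62 to 4.15, so no library repeats another. In simulated data with the 12612 genes of this comparison, the fit recovered 40 of 62 genes at 1.25-fold and 60 of 70 at 1.5-fold. At 2-fold it recovered 61 of 67, with 8 false calls in all. Only those few genes were changed there, and all genes were given the common coefficient of variation. In the real libraries 77.6% of genes were called, so these rates may not carry over to them. Positions and GC content are from GENCODE 29 and promoters from RefSeq.

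Alternatives were DESeq2 1.42.0 (size factors, Wald test), upper-quartile scaling, other filters, limma 3.58.1 on log2(FPKM + 1) and log2(TPM + 1), removal of a GC trend, a 1.2-fold test, a replicate block and each library left out. Values per library were given for members called at 1.5-fold or more and for the largest called rise and fall of each class, with further members added after their values were seen. Of other lists, the largest called rise and fall are named. Some genes that this rule names are left out of the text and not reported here. Members and lists were chosen with earlier results of these data known.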

Additional observations from a re-analysis of the deposited data

How the results depend on the processing

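Over 17 alternatives, 27 called repair genes kept call and direction in all but the test against a 1.2-fold change, and no call under TMM became the opposite call. RAD50, RBBP8 and WRN, not called under TMM, were called lower with the GC trend removed and higher on log2(FPKM + 1) and log2(TPM + 1). Of the 8 genes at 1.5-fold or more, 7 kept their call throughout, ATM being the exception. Scaling moved the split: log2(TPM + 1) gave 24 higher and 12 lower of the 51, upper-quartile scaling 21 and 19, and removal of the GC trend 15 and 28, against 19 and 21. With the GC trend removed, with or without the block, at 1.5-fold or more 2 genes passed as higher and 8 as lower, NBN, MRE11, XPA and ERCC3 joining, against 4 and 4. There, 9 homologous recombination and 2 mismatch repair genes were lower, and without the block 1 base excision gene was higher. The cause was not tested.

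The test against a 1.2-fold change, which asks for more by construction, called 11 higher and 8 lower: in homologous recombination 3 higher and 2 lower, in end joining 1 and 0, in mismatch repair 1 and 0, with 1 base excision gene higher and 3 nucleotide excision, 1 damage signalling and 0 Fanconi anaemia genes lower. On log2(FPKM + 1) and log2(TPM + 1), 0 damage signalling genes were lower, and 1 and 0 end joining genes. Fanconi anaemia genes called lower were 1 with the DESeq2 Wald test, DESeq2 size factors, at least 50 counts, log2(FPKM + 1), log2(TPM + 1) and upper-quartile scaling, and 3 with the GC trend removed, with or without the block. Nucleotide excision genes called lower were 4 on log2(TPM + 1), against 6.

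Leaving out each library gave 18 to 19 repair genes higher and 19 to 21 lower, with 4 to 5 higher and 4 to 6 lower at 1.5-fold or more, and 1 to 2 Fanconi anaemia genes lower. Values turned sign in 12 genes. On log2(FPKM + 1) and log2(TPM + 1) these were BLM (0.079 and 0.126, and 0.0122 with upper-quartile scaling), CHEK2 (0.0129 and 0.0584), ERCC1 (0.0104 and 0.0553), FANCI (0.0037 and 0.0498), MGMT (0.0856 and 0.133), MSH6 (0.0241 and 0.0705) and OGG1 (0.0582 and 0.103, and 0.0365 without shScramble replicate 2). On log2(TPM + 1) alone FANCD2 (0.0006) and PRKDC (0.0424) did. With the GC trend removed, and the same with the block, RAD50 (-0.14), RBBP8 (-0.14) and WRN (-0.12) did.

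The replicate block left all 51 calls as they were, with 19 higher and 21 lower. Deviations of libraries with the same number correlated at 0.05, -0.00877 and -0.01, and those with different numbers at -0.0321 to 0.0444. No shift shared by number was seen, but whether such libraries were prepared together cannot be told from these values.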

Other observations

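Genes of neighbouring processes changed in both directions, as did all genes tested, of which 39.4% were higher and 38.1% lower. Of 45 DNA replication genes, 21 were higher in shCRIP1 and 14 lower, with a median log2 fold change of 0.07 that turned to -0.04 with the GC trend removed. CCNE2, the cyclin E that drives entry into S phase, averaged 176 ± 12.2 TPM in shCRIP1 and 53.4 ± 1.79 TPM in shScramble (SD, n = 3 each), a log2 fold change of 1.58 ± 0.05 (SE) with an adjusted p of 5.68e-17 by edgeR. POLD1, the catalytic subunit of the lagging-strand polymerase, averaged 29.7 ± 1.55 TPM in shCRIP1 and 47.6 ± 0.88 TPM in shScramble (-0.81 ± 0.05, adjusted p = 3.36e-12 by edgeR). Of 28 mitotic genes, 12 were higher and 11 lower, from ANLN, a cytokinesis scaffold, at 0.81 ± 0.04 to CCNB1, the mitotic cyclin, at -0.55 ± 0.04.

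Genes known to be induced by DNA damage were 11 higher and 7 lower of 25 tested, with a median of 0.05 that turned to -0.04 with the GC trend removed. FDXR, a mitochondrial reductase, averaged 17.8 ± 0.77 TPM in shCRIP1 and 5.69 ± 0.65 TPM in shScramble (1.51 ± 0.10, adjusted p = 3.26e-11 by edgeR). CCNG1, cyclin G1, averaged 133 ± 1.55 TPM in shCRIP1 and 289 ± 8.71 TPM in shScramble (-1.25 ± 0.04, adjusted p = 3.69e-17 by edgeR).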
